A study of Mus musculus with 12 samples.

Results

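Agpat1, Brd2, Clic1 and Skiv2l are 4 genes that lie in the major histocompatibility complex (MHC) region of mouse chromosome 17, inside the diabetes interval Idd1, and that do not present antigen. They were chosen by symbol, as the probes that carry exactly 1 of these symbols, out of 8708 named genes and 16411 measured features. The choice was made with fitted values of NOD.H2h4 and B6.NODIdd1,5 spleen T cells known, so the values of the NOD, NOD.H2h4 and B6.NODIdd1,5 T cell arrays are described here without a test. The kidney arrays and the marrow transfer arrays gave none of the values known to lie behind the choice, and the 4 genes are tested there. Earlier results of these data were known when the genes were chosen, so these tests may not be wholly independent of the choice.

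The study set RNA of each group against RNA of B6 mice on 12 cDNA arrays with 2 colour channels, 2 arrays per group. Spleen T cells came from NOD mice, which develop autoimmune diabetes spontaneously, from NOD.H2h4 mice, NOD mice with a different MHC haplotype, and from B6.NODIdd1,5 mice, B6 mice into which the NOD intervals Idd1 and Idd5 were bred. Kidney cells of B6.NODIdd1,5 mice were compared with B6 kidney cells. The other groups were spleen T cells of B6 recipients of NOD bone marrow (NODtoB6) and of NOD recipients of B6 bone marrow (B6toNOD), both compared with spleen T cells of B6 mice. B6 has no arrays of its own, so every value is a ratio to B6 and the spread of B6 is not measured. The sources used here give no age, sex, T cell isolation method, number of mice per array or share of donor cells in the recipients. The 2 arrays of a group are not stated to come from separate mice, so the p-values measure only the spread between these arrays.

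Between antigen-presenting genes the MHC region is packed with genes of general cell biology, and strains that differ in MHC haplotype can differ in these neighbours as well. Agpat1 encodes an enzyme of the endoplasmic reticulum that acylates lysophosphatidic acid to phosphatidic acid, a precursor of membrane phospholipids and of triglycerides. Clic1 encodes a chloride intracellular channel protein that exists in a soluble and a membrane form and is well known in macrophages. Brd2 encodes a BET protein, whose bromodomains bind acetylated histones and which acts in transcription. Skiv2l encodes the RNA helicase of the SKI complex, which unwinds RNA for the cytoplasmic exosome.

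The promoter sequences of 3 of the 4 genes were taken from RefSeq (GRCm38.p6) and are shown because Clic1 and Brd2 varied together over the arrays and Agpat1 did not. Each covers 250 bases before the most upstream start site listed for the gene, on the strand of the gene, 5′ to 3′. Agpat1 lies on the plus strand (chr17:34605611-34605860), Brd2 on the minus strand (chr17:34122608-34122857) and Clic1 on the plus strand (chr17:35049993-35050242). Capitals mark matches, on either strand, to 9 motifs searched.
Agpat1: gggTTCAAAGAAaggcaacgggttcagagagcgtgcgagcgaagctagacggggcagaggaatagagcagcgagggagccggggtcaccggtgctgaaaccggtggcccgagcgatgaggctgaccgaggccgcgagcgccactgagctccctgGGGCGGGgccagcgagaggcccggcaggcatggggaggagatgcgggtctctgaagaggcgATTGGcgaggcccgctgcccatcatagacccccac
Brd2: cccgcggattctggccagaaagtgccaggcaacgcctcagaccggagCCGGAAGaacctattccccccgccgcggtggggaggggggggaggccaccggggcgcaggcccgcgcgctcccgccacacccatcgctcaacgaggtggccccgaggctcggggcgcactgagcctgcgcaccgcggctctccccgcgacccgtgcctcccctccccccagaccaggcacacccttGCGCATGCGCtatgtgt
Clic1: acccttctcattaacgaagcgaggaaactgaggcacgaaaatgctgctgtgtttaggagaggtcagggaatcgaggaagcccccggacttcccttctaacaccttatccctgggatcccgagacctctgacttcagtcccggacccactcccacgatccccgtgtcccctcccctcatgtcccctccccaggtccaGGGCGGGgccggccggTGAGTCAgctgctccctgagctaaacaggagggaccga
The motifs were the ETS core CCGGAAG, the GC box GGGCGGG, the NRF1 core GCGCATGC, TGACGTC of the cAMP response element, the CCAAT box CCAAT, the E-box CACGTG, the TATA box TATAAA, the AP-1 site TGAGTCA and the interferon-activated GAS element TTCNNNGAA. The Agpat1 promoter held a GAS match that began 247 bases before the start site, a GC box at 96 bases and a CCAAT box at 35 bases. The Brd2 promoter held an ETS core at 203 bases and 2 overlapping NRF1 cores from 17 bases before the start site. The Clic1 promoter held a GC box at 54 bases and an AP-1 site at 38 bases. Of the 32851 promoters in the table, cut to the same length, 23.4% held a GC box, 33.8% a CCAAT box, 7.02% a GAS element, 6.91% an ETS core, 2.26% an NRF1 core and 4.46% an AP-1 site. The TGACGTC letters (2.78% of all promoters), the E-box (6.02%) and the TATA box (12.4%) had no match in these 3 windows. No motif was shared by all 3 windows, and the GC box was the 1 motif shared by a pair, Agpat1 and Clic1. The promoters held 67.6% G and C in Agpat1, 73.6% in Brd2 and 60.8% in Clic1, against a median of 52.4% over all promoters. They held 22 CG pairs in Agpat1, 27 in Brd2 and 13 in Clic1, against a median of 6. A match describes the sequence only, and no binding was measured.

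Each gene is represented by 1 probe, with a value on all 12 arrays. Values are log2 ratios to B6 after each array was centred on its median, so that a value of 0 is that of the typical feature of the array. Centring raised the values of NOD T cells by 0.15, those of NOD.H2h4 by 0.80, of B6.NODIdd1,5 T cells by 0.18, of B6.NODIdd1,5 kidney by 0.46, of NODtoB6 by 0.23 and of B6toNOD by 0.76. A group mean above 0 but smaller than this shift is below 0 as deposited. Arrays gave values for 18837 to 20558 of 20736 probes. Pearson's r across features was 0.505 to 0.76 between the 2 arrays of a group (6 pairs) and -0.022 to 0.447 between arrays of different groups (60 pairs). The labels name the dyes of the 8 strain arrays but not of the 4 marrow transfer arrays, whose direction was taken from the second channel being B6. With those arrays turned, every sign given for NODtoB6 and B6toNOD would turn. In bulk RNA, fewer cells of a type and less RNA per cell cannot be told apart.

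**Figure D1:**
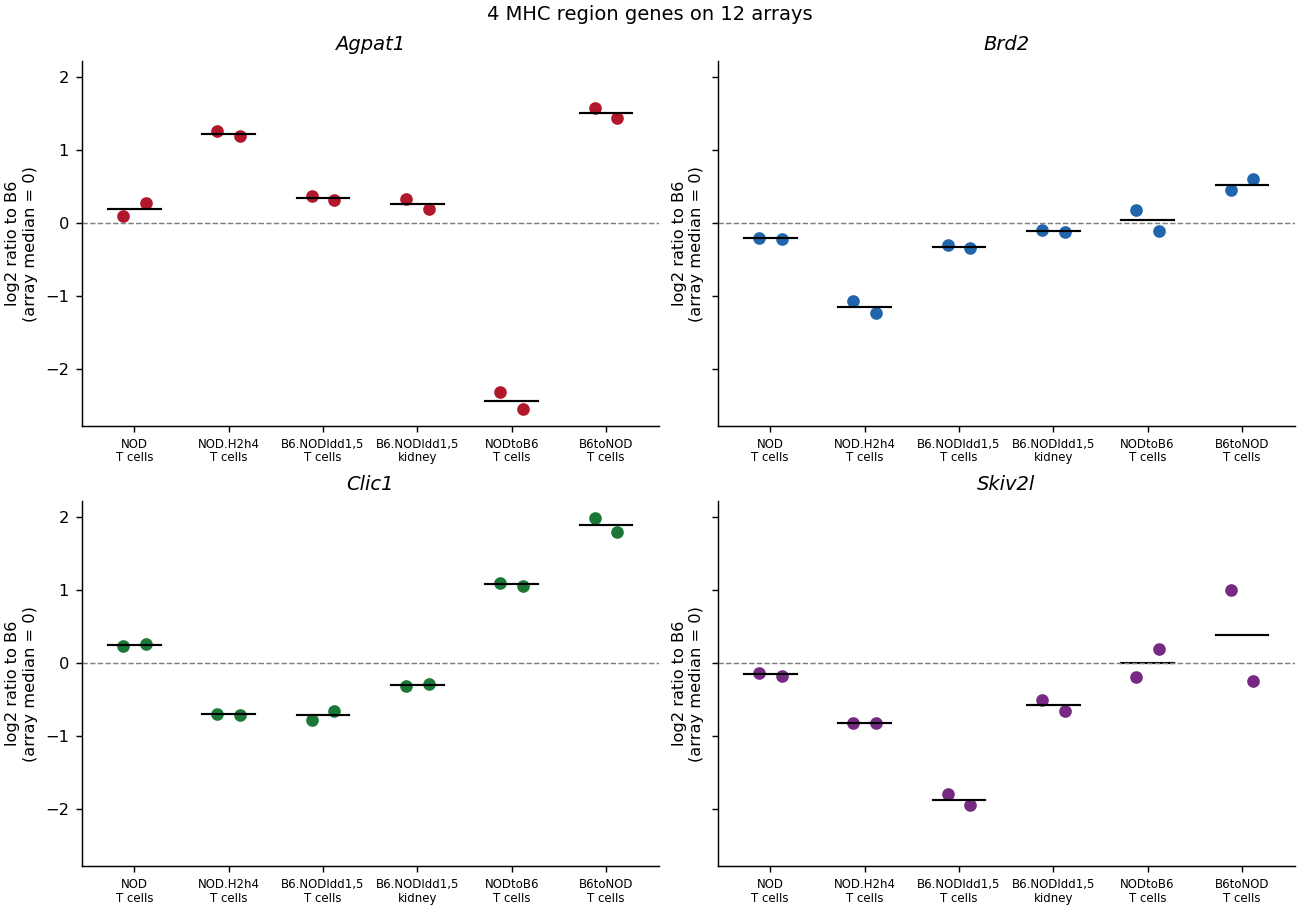
Log2 ratio to B6 (array median set to 0) of Agpat1, Brd2, Clic1 and Skiv2l, with 1 point per array and a bar at the mean of the 2 arrays of each group. Agpat1 was lowest in NODtoB6 at -2.43 and highest in B6toNOD at 1.51, Clic1 was high in both marrow transfer groups, and the B6toNOD arrays of Skiv2l lay far apart.

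Agpat1, the lipid enzyme, had the widest range of the 4 genes. It lay at 0.10 and 0.28 in NOD T cells, at 1.26 and 1.19 in NOD.H2h4 T cells and at 0.37 and 0.31 in B6.NODIdd1,5 T cells. In B6.NODIdd1,5 kidney it lay at 0.34 and 0.20. In marrow recipients it lay at -2.31 and -2.55 in NODtoB6 and at 1.57 and 1.44 in B6toNOD. The NODtoB6 arrays stood alone below 0, and the B6toNOD and NOD.H2h4 arrays stood above all others. From high to low the groups ran B6toNOD, NOD.H2h4, B6.NODIdd1,5 T cells, kidney, NOD and NODtoB6. The kidney arrays overlapped those of B6.NODIdd1,5 T cells above them and those of NOD below them, and the other neighbours in that order did not overlap. The whole range of 4.12 on the log2 scale was wider than that of 93.3% of features with a value on all arrays.

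Of these, the marrow and kidney values were tested. In NODtoB6 T cells, Agpat1 was lower than in B6 by 2.43 ± 0.088 on the log2 scale (fitted log2 ratio -2.43, SE, n = 2 arrays, adjusted p = 6.2e-06), which is 5.39-fold lower. Of 15288 features tested, 180 were lower. In B6toNOD T cells it was higher than in B6 by 1.51 ± 0.088 (adjusted p = 1.3e-05), or 2.84-fold, and 470 of 14296 features were higher. The difference of NODtoB6 minus B6toNOD was -3.94 ± 0.124 (95% interval -4.23 to -3.65, adjusted p = 1.3e-05), or 15.3-fold lower in NODtoB6, and 33 of 13676 features had a lower difference. In kidney Agpat1 was at 0.27 ± 0.088 (95% interval 0.06 to 0.47, adjusted p = 0.053). It passed the threshold in kidney without either NODtoB6 array (adjusted p = 0.039) or without either B6toNOD array (adjusted p = 0.046), and lay at -0.19 without centring.

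Clic1, the chloride intracellular channel gene, lay at 0.24 and 0.27 in NOD T cells, at -0.69 and -0.71 in NOD.H2h4 T cells and at -0.77 and -0.66 in B6.NODIdd1,5 T cells. In B6.NODIdd1,5 kidney it lay at -0.31 and -0.28. In marrow recipients it lay at 1.10 and 1.06 in NODtoB6 and at 1.99 and 1.79 in B6toNOD. Both marrow transfer groups stood above every strain array, and the B6toNOD arrays stood above those of NODtoB6. From high to low the groups ran B6toNOD, NODtoB6, NOD, kidney, NOD.H2h4 and B6.NODIdd1,5 T cells. The arrays of the lowest pair overlapped, and the other neighbours in that order did not.

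Clic1 was higher than B6 in NODtoB6 T cells by 1.08 ± 0.072 (adjusted p = 0.00012), or 2.12-fold, and 577 of 15288 features were higher. In B6toNOD T cells it was higher by 1.89 ± 0.072 (adjusted p = 3.6e-06), or 3.71-fold, and 190 of 14296 features were higher. The difference of NODtoB6 minus B6toNOD was -0.81 ± 0.102 (95% interval -1.05 to -0.57, adjusted p = 0.00086). That difference fell short of the threshold without centring (-0.28, adjusted p = 0.28), with arrays scaled to the same spread (-0.02, adjusted p = 0.93) and with a running median along the probe order removed (-0.26, adjusted p = 0.076). In kidney Clic1 was lower by 0.30 ± 0.072 (fitted log2 ratio -0.30, adjusted p = 0.016), a call that ended without kidney replicate 1 (adjusted p = 0.16) or kidney replicate 2 (adjusted p = 0.12).

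Brd2, the BET protein gene, had the narrowest range of the 4 genes. It lay at -0.21 and -0.21 in NOD T cells, at -1.06 and -1.23 in NOD.H2h4 T cells and at -0.30 and -0.35 in B6.NODIdd1,5 T cells. In B6.NODIdd1,5 kidney it lay at -0.09 and -0.12. In marrow recipients it lay at 0.18 and -0.10 in NODtoB6 and at 0.45 and 0.60 in B6toNOD. The NOD.H2h4 arrays stood below all others and the B6toNOD arrays above all others. From high to low the groups ran B6toNOD, NODtoB6, kidney, NOD, B6.NODIdd1,5 T cells and NOD.H2h4, and among neighbours in that order the NODtoB6 and kidney arrays overlapped. The whole range of 1.83 was wider than that of 57.5% of features.

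Brd2 was higher than B6 in B6toNOD T cells by 0.53 ± 0.088 (adjusted p = 0.002), but was at -0.24 (adjusted p = 0.094) without centring and at 0.20 (adjusted p = 0.072) with a running median removed. In NODtoB6 T cells it was at 0.04 ± 0.088 (95% interval -0.17 to 0.24, adjusted p = 0.79), and in kidney at -0.11 ± 0.088 (95% interval -0.31 to 0.10, adjusted p = 0.40). Without centring the kidney value was -0.57 (adjusted p = 0.0088). The difference of NODtoB6 minus B6toNOD was -0.49 ± 0.125 (adjusted p = 0.019), but it was 0.04 (adjusted p = 0.85) without centring. It also fell short of the threshold with arrays scaled to the same spread (-0.30, adjusted p = 0.16), with a running median removed (-0.23, adjusted p = 0.15), without NODtoB6 replicate 2 (-0.35, adjusted p = 0.087) and without B6toNOD replicate 2 (-0.42, adjusted p = 0.064).

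Skiv2l, the SKI complex helicase gene, lay at -0.14 and -0.17 in NOD T cells, at -0.81 and -0.82 in NOD.H2h4 T cells and at -1.79 and -1.94 in B6.NODIdd1,5 T cells. In B6.NODIdd1,5 kidney it lay at -0.51 and -0.65. In marrow recipients it lay at -0.18 and 0.19 in NODtoB6 and at 1.01 and -0.24 in B6toNOD. The B6.NODIdd1,5 T cell arrays stood below all others, 3.64-fold lower than B6 in the mean, and the B6toNOD arrays differed from each other by 1.25, the widest gap within a group for the 4 genes. From high to low the groups ran B6toNOD, NODtoB6, NOD, kidney, NOD.H2h4 and B6.NODIdd1,5 T cells. The arrays of the first 3 overlapped and those of the other 3 were separate.

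No tested value of Skiv2l passed the threshold. It was at -0.58 ± 0.25 in kidney (95% interval -1.16 to 0.01, adjusted p = 0.12), at 0.0045 ± 0.25 in NODtoB6 (95% interval -0.58 to 0.59, adjusted p = 0.99) and at 0.38 ± 0.25 in B6toNOD (95% interval -0.20 to 0.97, adjusted p = 0.24). The difference of NODtoB6 minus B6toNOD was -0.38 ± 0.354 (adjusted p = 0.44). The B6toNOD value and the difference turned on single B6toNOD arrays. Without B6toNOD replicate 2 the value there was 1.01 (adjusted p = 0.0016) and the difference -1.0025 (adjusted p = 0.0049). Without replicate 1 they were -0.24 (adjusted p = 0.21) and 0.25 (adjusted p = 0.31). With either of these arrays left out, the kidney value of -0.58 passed (adjusted p = 0.005), and without centring it was -1.04 (adjusted p = 0.035).

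**Figure D2:**
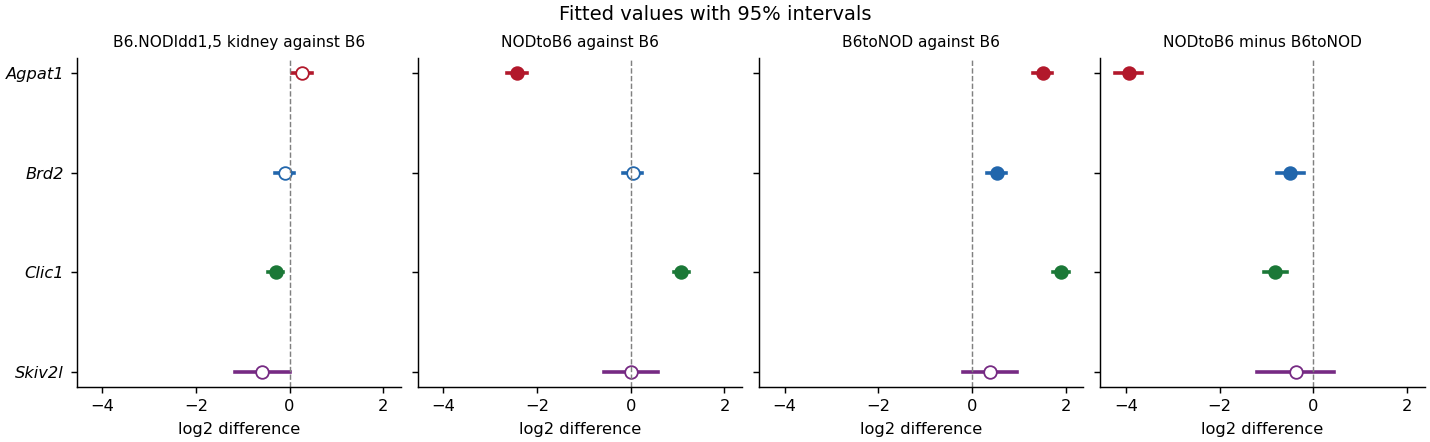
Fitted log2 differences of the 4 genes in the 4 comparisons in which they were tested, with 95% intervals; filled points passed an adjusted p of 0.05 and open points did not. Agpat1 was below 0 in NODtoB6 and above 0 in B6toNOD, Clic1 was above 0 in both, the Brd2 values of B6toNOD and of the difference change sign without centring, and the intervals of Skiv2l are the widest.

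The count of the 4 genes past the threshold can be set beside that over all features. In kidney 1 of the 4 passed, Clic1, which was lower, against 33.5% of features in either direction, 22.4% higher and 11.1% lower. In NODtoB6 2 of the 4 passed, Clic1 higher and Agpat1 lower, against 26.8% in either direction, 13.8% higher and 13.1% lower. In B6toNOD 3 of the 4 passed, all higher (Agpat1, Brd2 and Clic1, with Brd2 at -0.24 without centring), against 51.4% in either direction, 28.5% higher and 22.9% lower. For NODtoB6 minus B6toNOD 3 of the 4 passed, all lower (the same 3 genes, with Brd2 at 0.04 without centring), against 36% in either direction, 13.8% higher and 22.2% lower. The 3 marrow comparisons share arrays. With 4 genes chosen by hand, these counts are no result about the 4 as a set.

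Over the 12 arrays Pearson's r was 0.806 between Brd2 and Clic1, 0.807 between Clic1 and Skiv2l and 0.491 between Brd2 and Skiv2l. Agpat1 was at -0.115 to -0.165 with the other 3 genes. These values are descriptions, since arrays of a group share their RNA source and all share the B6 channel. In NODtoB6 Agpat1 was far below 0 while Clic1 was above it.

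The genes most like each of the 4 were ranked by r over the 12 arrays among 6915 named genes with a value on all of them. For Agpat1 they were Naxe (r = 0.982), Tbc1d24 (0.976) and Mob1b (0.973), and 55 genes had an r above 0.9. Naxe encodes an enzyme that repairs damaged NAD(P)H hydrates, and it lay at -2.71 and -2.68 in NODtoB6 and at 1.26 and 1.51 in B6toNOD. Over the 8 strain arrays alone, r with Agpat1 was 0.797 for Naxe, 0.853 for Tbc1d24 and 0.913 for Mob1b.

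For Clic1 they were Anxa1 (r = 0.992), Cfl1 (0.986) and Lyz2 (0.985), and 124 genes had an r above 0.9. Anxa1 encodes annexin A1, which is abundant in neutrophils and macrophages, Cfl1 the actin-severing protein cofilin, and Lyz2 the lysozyme of macrophages and granulocytes. Anxa1 lay at 2.84 and 2.75 in NODtoB6 and at 4.80 and 4.78 in B6toNOD, above its values in every strain array. Over the 8 strain arrays, r with Clic1 was 0.942 for Anxa1, 0.948 for Cfl1 and 0.882 for Lyz2.

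For Brd2 they were Map2k1 (r = 0.981), a MAP kinase kinase gene, Hnrnpa1 (0.967), which encodes an RNA-binding protein of pre-mRNA processing, and Mrpl18 (0.966), which encodes a mitochondrial ribosomal protein. There were 53 genes above 0.9. For Skiv2l they were Psmb6 (r = 0.962), a proteasome subunit gene, Rpa1 (0.952), which encodes a subunit of the single-stranded DNA binding protein RPA, and Rnf166 (0.947), a ubiquitin ligase gene. There were 20 genes above 0.9.

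Markers of other cells moved with some of these values. Of 14 myeloid markers 5 were measured (Fcgr3, Lcn2, Ltf, Lyz2 and S100a9), and all 5 were higher than B6 in NODtoB6 and in B6toNOD. Their median by array was 2.65 and 2.49 in NODtoB6 and 3.60 and 3.54 in B6toNOD, against -0.52 to 0.74 on the 8 strain arrays. On the marrow transfer arrays this median was the value of Lyz2, named above among the genes most like Clic1 (r = 0.985). Its r with Clic1 is therefore not separate from that of Lyz2. S100a9, a calcium-binding protein gene of neutrophils, lay at 3.10 and 2.996 in NODtoB6 and at 6.39 and 6.96 in B6toNOD. It also lay above 0 in NOD (2.13 and 2.20) and NOD.H2h4 (2.32 and 2.33) T cells. In B6.NODIdd1,5 it lay below 0, in T cells (-1.24 and -1.26) and in kidney (-0.55 and -0.49). In NOD.H2h4 T cells 3 of the 5 myeloid markers were called higher and 2 lower. The r of the myeloid median with Clic1 was 0.954 over the 12 arrays and 0.531 over the 8 strain arrays. With Skiv2l it was 0.754 and 0.694, with Brd2 0.64 and -0.341, and with Agpat1 -0.147 and 0.226. The part of myeloid cells in the values of Clic1, Brd2 and Skiv2l was not tested.

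**Figure D3:**
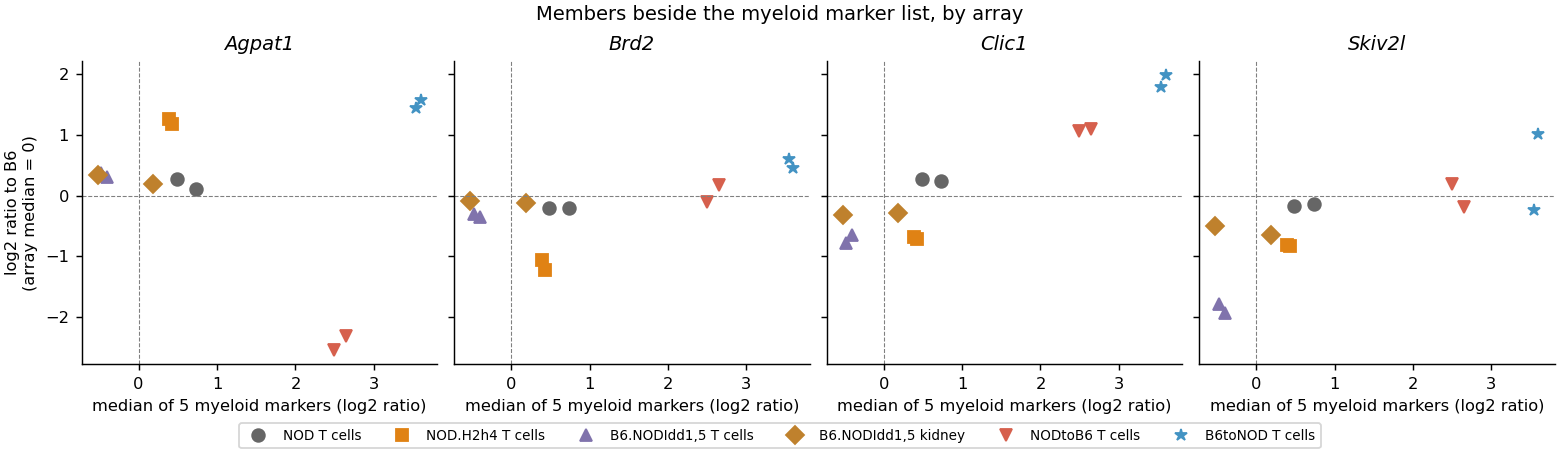
Log2 ratio to B6 of each gene against the median of the 5 measured myeloid markers on the same array, with 1 symbol per group and 1 point per array. The marrow transfer arrays lie at 2.49 to 3.60 on the horizontal axis, Clic1 is high on all 4 of them, and Agpat1 is low on the NODtoB6 pair and high on the B6toNOD pair.

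Erythroid markers (6 of 13 measured) had medians by array of 1.66 and 1.99 in NODtoB6, 0.80 and 0.55 in B6toNOD, 1.63 and 1.46 in NOD, 0.29 and 0.19 in NOD.H2h4, -0.58 and -0.89 in B6.NODIdd1,5 T cells, and 0.16 and 0.02 in kidney. Hbb-b1, an adult beta globin gene, lay at 2.58 and 3.10 in NODtoB6, at 1.73 and 1.74 in B6toNOD, at 3.33 and 3.29 in NOD and at -1.09 and -1.32 in B6.NODIdd1,5 T cells. Of the erythroid markers tested, 4 of 6 were called higher and 0 lower in NODtoB6, and 3 of 5 and 0 in B6toNOD. In NOD 3 of 6 were higher and 1 lower, Car2 (-0.69, adjusted p = 0.042). In B6.NODIdd1,5 T cells 0 of 6 were higher and 5 lower. These are 66.7%, 60%, 66.7% and 83.3% of the markers tested, beside 26.8%, 51.4%, 12.2% and 30.3% of all features. Over the 8 strain arrays, r of the erythroid median was 0.901 with Skiv2l and 0.867 with Clic1. Over the 12 arrays these were 0.765 and 0.602, and the part of red cell RNA in either gene was not tested. B cell markers (5 of 10 measured) had medians by array of -0.48 and -0.36 in NODtoB6, -0.17 and -0.28 in B6toNOD and -0.87 to 0.63 on the strain arrays. These markers went both ways around their median. In NODtoB6 2 were called higher and 0 lower, which is 40% beside 26.8% of all features. In B6toNOD 2 were called higher and 1 lower, which is 60% beside 51.4% of all features. The r of the B cell marker median with Agpat1 was -0.791 over the strain arrays but 0.009 over the 12 arrays. Of 13 T cell markers 3 were measured (Cd28, Cd247 and Cd4, not Cd3e), and a ratio to the same cell type of B6 cannot check the labelled cell type. Their median by array was -1.72 and -0.89 in B6.NODIdd1,5 T cells (2 of the 3 with a value), where Skiv2l was lowest, and -1.11 and -1.24 in kidney. It was 0.57 and 0.66 in NODtoB6, 0.06 and 0.26 in NOD and 0.06 and -0.64 in NOD.H2h4. In B6toNOD it was 0.12, from Cd28 alone, and -0.69, from Cd28 and Cd247. The r of this median with Skiv2l was 0.676 over the 12 arrays, which do not all hold values for the same markers. The part of this median in the Skiv2l values was not tested. In kidney, the tubule genes Umod (1.02 and 0.996) and Lrp2 (0.92 and 0.84) were above 0, and the kidney marker median (5 of 12 measured) was 0.49 and 0.38. Of these 5 markers 2 were called higher there and 0 lower, which is 40% beside 33.5% of all features. Umod and Lrp2 also lay above 0 in NODtoB6 (0.32 and 0.055, and 0.17 and 0.38), as did Umod in B6.NODIdd1,5 T cells (0.51 and 0.44).

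The nearest measured genes on either side show how far each value was shared along the chromosome. Rnf5, a ubiquitin ligase gene directly beside Agpat1 in the RefSeq order, was at -0.18 (adjusted p = 0.14) in NODtoB6 and at -0.10 (adjusted p = 0.34) in B6toNOD, where Agpat1 was at -2.43 and 1.51. On the other side, with 14 genes between, Stk19 was at -0.27 (adjusted p = 0.24) and 0.04 (adjusted p = 0.86). In NOD.H2h4 T cells, where Agpat1 was at 1.22, Rnf5 was higher as well (0.36, adjusted p = 0.011), though below 0 without centring. Stk19 was at -0.17 there (adjusted p = 0.45). Ddah2, which encodes an enzyme that breaks down an inhibitor of nitric oxide synthesis and adjoins Clic1, was at -0.13 (adjusted p = 0.82) in NODtoB6 and -0.38 (adjusted p = 0.40) in B6toNOD, where Clic1 passed upwards. D17H6S56E-5, with 6 genes between it and Clic1, was at 0.29 (adjusted p = 0.23) and -0.17 (adjusted p = 0.43). Lsm2, the nearest measured gene on that side in the list of MHC region genes, was at 0.04 (adjusted p = 0.82) in NODtoB6 and passed upwards in B6toNOD (0.38, adjusted p = 0.028), though below 0 without centring. Lsm2 was named beside Clic1 after its values were seen. In NOD.H2h4 T cells, where Clic1 was at -0.70, Ddah2 was lower (-1.41, adjusted p = 0.017) and Lsm2 higher (1.005, adjusted p = 0.00047). In B6.NODIdd1,5 T cells, where Clic1 was at -0.71, Ddah2 lay at 0.50 and 1.68 (fitted value 1.09, adjusted p = 0.055). Lsm2 was at 0.03 there (adjusted p = 0.89).

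H2-DMa, the peptide-exchange gene of MHC class II directly beside Brd2, was lower than B6 in B6toNOD (-0.60, adjusted p = 0.0065) and in kidney (-0.94, adjusted p = 0.0016), and its difference of NODtoB6 minus B6toNOD was 0.62 (adjusted p = 0.034). Rxrb, a retinoid receptor gene on the other side of Brd2 with 5 genes between, was lower in B6toNOD (-0.65, adjusted p = 0.0064). Both ran opposite to the centred Brd2 value of 0.53 there, which is -0.24 without centring. In NOD.H2h4 T cells, where Brd2 was lowest at -1.15, both lay on the same side of 0, Rxrb at -0.98 (adjusted p = 0.0012) and H2-DMa at -0.96 and -0.52 on the 2 arrays. Dxo, the decapping exonuclease gene directly beside Skiv2l, was at 0.01 in NODtoB6 (adjusted p = 0.93) and at -0.16 in kidney (adjusted p = 0.20), and at -0.14 in B6.NODIdd1,5 T cells, where Skiv2l was at -1.86. Beyond Dxo the next measured gene of the region list was Stk19. It was lower than B6 in B6.NODIdd1,5 T cells (-0.98, adjusted p = 0.0035) and in kidney (-0.81, adjusted p = 0.0068). Stk19 was named beside Skiv2l after these values were seen, so they are no test of sharing along the chromosome. Nelfe, a gene of the negative elongation factor with 2 genes between it and Skiv2l, had B6.NODIdd1,5 T cell arrays at 4.32 and -0.04, which lie far apart.

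**Figure D4:**
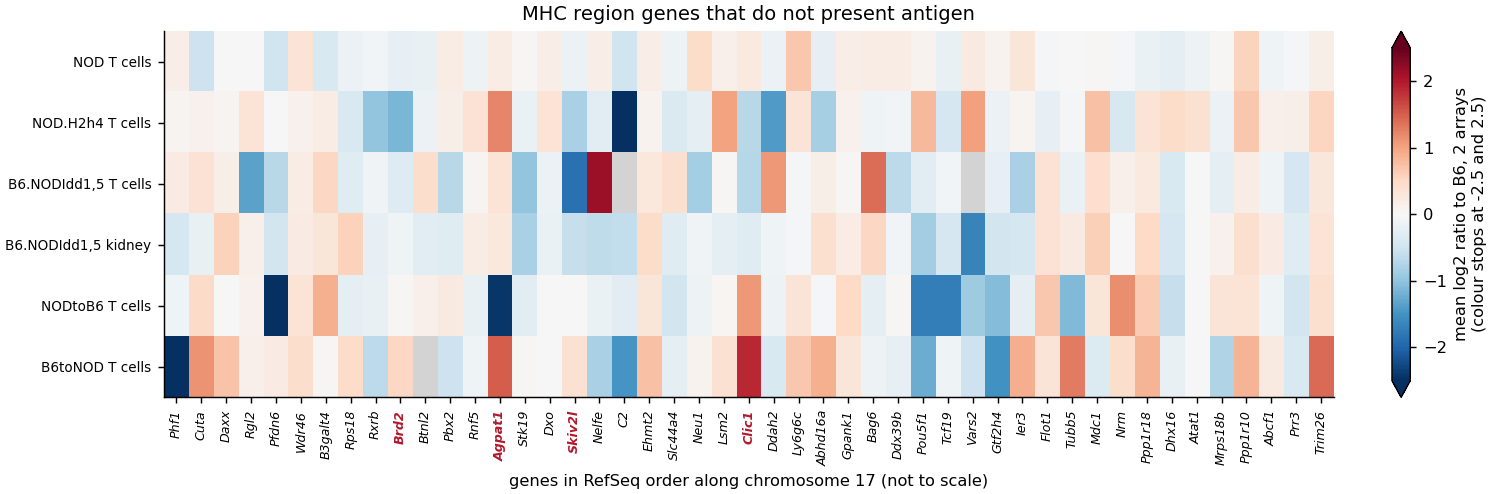
Mean log2 ratio to B6 of 2 arrays for the 4 genes (red names) and the 43 other measured MHC region genes that do not present antigen, in RefSeq order along chromosome 17 and not to scale; grey cells were not tested. Agpat1 in NODtoB6 (-2.43) stands beside Rnf5 at -0.18, and Clic1 in B6toNOD (1.89) beside Lsm2 at 0.38 and Ddah2 at -0.38; the cells of Nelfe in B6.NODIdd1,5 T cells (arrays at 4.32 and -0.04) and of Phf1 in B6toNOD (-1.34 and -6.09) are means of arrays far apart.

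Of 89 other MHC region genes that do not present antigen, 43 were measured. In kidney 6 were higher and 5 lower of 43 tested. Mdc1 (0.59), a DNA damage mediator gene, and Daxx (0.58), a histone chaperone gene, were the highest, and Pou5f1 (-0.87), the gene of the pluripotency factor Oct4, and Stk19 (-0.81) the lowest. In NODtoB6 6 were higher and 7 lower of 43. The highest were Nrm (1.17), which encodes the nuclear envelope protein nurim, and B3galt4 (0.90), a glycosyltransferase gene, and the lowest were Pfdn6 (-2.57), a prefoldin chaperone subunit gene, Tcf19 (-1.73) and Pou5f1 (-1.72). In B6toNOD 13 were higher and 7 lower of 42. The highest were Trim26 (1.41), a tripartite motif gene, Tubb5 (1.31), a beta tubulin gene, and Cuta (1.12). The lowest was Phf1, a polycomb-associated gene, whose arrays at -1.34 and -6.09 lay far apart, followed by Gtf2h4 (-1.50), a subunit gene of the transcription factor TFIIH.

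For NODtoB6 minus B6toNOD 4 were higher and 8 lower of 42, with the lowest at -2.77 (Pfdn6), -2.40 (Tubb5) and -1.62 (Tcf19). Pfdn6, at -2.92 and -2.22 in NODtoB6 and at 0.31 and 0.09 in B6toNOD, was at 0.20 (adjusted p = 0.38) in the fit of B6toNOD. Tubb5 had the directions of Agpat1 in both groups, lower in NODtoB6 (-1.10, adjusted p = 0.00067) and higher in B6toNOD (1.31, adjusted p = 5.4e-05), with a difference of -2.40 (adjusted p = 8.6e-05). The 12 past the threshold are 28.6% of the list, beside 36% of all features. The corresponding shares of the list were 25.6% in kidney, 30.2% in NODtoB6 and 47.6% in B6toNOD.

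In the T cells of the strains the same list had 3 higher and 1 lower of 43 in NOD, where 12.2% of all features passed, 9.79% higher and 2.46% lower. In NOD.H2h4 9 were higher and 5 lower of 43, where 39.5% passed, 24.1% higher and 15.4% lower. The highest was Lsm2 (1.005), an RNA-binding Sm-like protein gene, and the lowest was C2 (-3.03), the complement component gene. In B6.NODIdd1,5 T cells 3 were higher and 8 lower of 41, where 30.3% passed, 14.4% higher and 15.9% lower. Bag6 (1.39), a chaperone gene, was the highest, and Rgl2 (-1.34), a Ral exchange factor gene, the lowest. Among the 7 comparisons, the list's median was farthest from that of all features for NODtoB6 minus B6toNOD, at -0.16 beside -0.02. Without centring the calls were mostly lower in kidney (431 higher and 4616 lower, against 3497 and 1725 centred), B6toNOD (896 and 8531, against 4069 and 3273), NODtoB6 (581 and 2903, against 2104 and 1999), NOD.H2h4 (378 and 9698, against 3815 and 2437) and B6.NODIdd1,5 T cells (1009 and 2760, against 2118 and 2332, where lower calls led after centring as well). The split was 105 and 86 in NOD, against 1559 and 392 centred, and 3915 and 939 for NODtoB6 minus B6toNOD, against 1881 and 3037.

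Relatives of the 4 genes outside the region were measured in part. Of 16 other genes of glycerolipid synthesis, 9 were tested in NODtoB6, where limma called 0 higher and 2 lower (0 and 4 at an unadjusted p under 0.05): Agpat5, of the same enzyme family as Agpat1, fell by 1.96 (log2 ratio -1.96, adjusted p = 0.0069) and Gpat4, of the preceding step, by 0.96 (log2 ratio -0.96, adjusted p = 0.0027). These 2 are 22.2% of the list, beside 26.8% of all features. In B6toNOD 1 of 9 was higher, Gpam (0.27, adjusted p = 0.021), though below 0 without centring. The 2 lower were Gpat4 (-2.42, adjusted p = 1.1e-05) and Cds2 (-0.98, adjusted p = 0.0065). Together the calls are 33.3% beside 51.4% of all features. Agpat5 was at 0.90 there (adjusted p = 0.061). The differences of NODtoB6 minus B6toNOD were -2.87 for Agpat5 (adjusted p = 0.0033), in the direction of Agpat1, and 1.46 for Gpat4 (adjusted p = 0.00088), in the opposite direction. Agpat5 lay at -1.50 and -2.42 in NODtoB6, against 0.93 and 0.88 in B6toNOD. In kidney 1 was higher and 3 lower of 10, among them Agpat5 (-1.19, adjusted p = 0.033) and Gpat4 (-1.01, adjusted p = 0.0013), which is 40% beside 33.5% of all features.

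Of 4 other CLIC genes only Clic4 was tested. It was lower in NODtoB6 (-1.36, adjusted p = 0.00082), where Clic1 was higher, and was at -0.09 in B6toNOD (adjusted p = 0.61) and 0.27 in kidney (adjusted p = 0.19). Of 10 genes of the BET family and its transcription partners, 8 were tested. Hexim1, an inhibitor of the elongation kinase P-TEFb, was higher in NODtoB6 (0.31, adjusted p = 0.017), B6toNOD (1.13, adjusted p = 1.6e-05) and kidney (0.36, adjusted p = 0.0064, below 0 without centring). The list had 1 higher and 1 lower in NODtoB6, 4 higher and 1 lower in B6toNOD and 1 higher and 2 lower in kidney. These are 25%, 62.5% and 37.5% of the list, beside 26.8%, 51.4% and 33.5% of all features in the same comparisons. Brd3, the other BET gene named here, was at -0.01 in NODtoB6 (adjusted p = 0.98) and -0.48 in B6toNOD (adjusted p = 0.16).

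Of 17 genes of the SKI complex and the RNA exosome, 11 were tested. In NODtoB6 limma called 0 in either direction (0 higher and 2 lower at an unadjusted p under 0.05). In B6toNOD it called 1 higher and 0 lower (1 and 1 unadjusted), the nuclear exosome gene Exosc10 (1.54, adjusted p = 1.2e-05). In kidney 2 were higher and 2 lower: Ttc37, the scaffold of the SKI complex, was at 0.68 (adjusted p = 0.022), while the exosome subunit gene Exosc7 was at -0.56 (adjusted p = 0.0089). In B6.NODIdd1,5 T cells, where Skiv2l was lowest, limma called 0 higher and 3 lower (0 and 4 unadjusted), among them Exosc7 (-0.47, adjusted p = 0.022). These 3 are 27.3% of the list, beside 30.3% of all features, and the shares past the threshold elsewhere were 0% beside 26.8% in NODtoB6, 9.09% beside 51.4% in B6toNOD and 36.4% beside 33.5% in kidney. These lists were drawn up with earlier results of these data known.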

How the data were processed

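RNA of spleen T cells, or in 1 group of kidney cells, was measured on 12 arrays, 2 per group. Per the labels, B6 RNA is in the second channel. The deposited log2 values are ratios, experimental channel over B6. Upstream tools: not given in the sources used here. The values show no normalisation. Spot intensities were not used here, so signal over background is unknown.

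A ratio of 100000, found in 146 cells, was treated as missing. Symbols follow a probe table of 2007, updated by gene identifier through RefSeq (12850 of 13033 probes with 1 symbol; 312 have several and 7391 none), and probes of a gene were averaged. Arrays were centred on their median. Group means were fitted over all 12 arrays with limma 3.58.1 (lmFit, eBayes; R 4.3.3), with 6 residual degrees of freedom. Benjamini-Hochberg adjustment ran over all features of a comparison, with a threshold of 0.05. Errors are standard errors, from the spread within groups pooled over all 12 arrays. The fit was tested on simulated data.

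The 4 genes and the lists were chosen with earlier results of these data known. Named besides them are the 3 genes most like each, the nearest measured neighbours, the 3 highest and lowest region genes past the threshold (or fewer), up to 4 genes per family list past it, and defining markers. Brd3, Lsm2 beside Clic1, and Stk19 beside Skiv2l were named after their values were seen. Alternatives were other scalings, filters, a replicate block and leaving out each array.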

Additional observations from a re-analysis of the deposited data

Results flagged for a closer look

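Agpat1, Brd2 and Clic1 differed between the marrow transfer groups by the fitted difference of NODtoB6 minus B6toNOD. For Agpat1 it was -3.94 (adjusted p = 1.3e-05), with both NODtoB6 arrays below and both B6toNOD arrays above 0. For Clic1 it was -0.81 (adjusted p = 0.00086), with all 4 arrays above 0, but it fell short of the threshold without centring (-0.28, adjusted p = 0.28), with arrays scaled to the same spread (-0.02, adjusted p = 0.93) and with a running median removed (-0.26, adjusted p = 0.076). For Brd2 it was -0.49 (adjusted p = 0.019), with its sign turned without centring. With 2 arrays per group, no single array could be tested as standing apart from its group.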

How the results depend on the processing

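Agpat1 in both marrow groups and in their difference, and Clic1 in both marrow groups, kept direction and call under every alternative run except turning the marrow arrays. The number of arrays limits the precision, and signal over background is unknown. Without centring, values changed sign for Agpat1 in kidney (-0.19), for Brd2 in NODtoB6 (-0.20), in B6toNOD (-0.24) and in their difference (0.041), and for Skiv2l in NODtoB6 (-0.23), in B6toNOD (-0.38) and in their difference (0.15). Those of NODtoB6 also did so with a running median removed (Brd2 -0.0335, Skiv2l -0.13) and, for Skiv2l, with arrays scaled to the same spread (-0.0069). Set against the other 5 groups' mean, Brd2 in kidney was at 0.12 and Skiv2l in B6toNOD passed (1.06, adjusted p = 0.016). Turning the marrow arrays gave 2.43 in NODtoB6, -1.51 in B6toNOD and 3.94 for the difference in Agpat1, -0.037, -0.53 and 0.49 in Brd2, -1.08, -1.89 and 0.81 in Clic1, and -0.0045, -0.38 and 0.38 in Skiv2l. The cause of these changes was not tested beyond the construction of each setting.

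Counts of features past the threshold moved by over 1.5 times without centring in NOD (191, against 1951) and NOD.H2h4 (10076, against 6252), and with arrays scaled to the same spread in NOD (4951), B6toNOD (4512, against 7342) and the difference (3127, against 4918). Leaving out 1 array gave 189 to 2459 for NOD, 3830 to 7512 for NOD.H2h4, 3358 to 5442 for B6.NODIdd1,5 T cells, 2483 to 6385 for kidney, 2317 to 5451 for NODtoB6, 6801 to 7645 for B6toNOD and 3919 to 5748 for the difference. It gave -0.10 to 0.18 for Brd2 in NODtoB6, and for Skiv2l -0.18 to 0.19 in NODtoB6, -0.24 to 1.01 in B6toNOD and -1.0025 to 0.25 for the difference. A group left with 1 array is assumed to vary like the others.

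The replicate numbers pair nothing: differences between replicate 1 and 2 correlated at -0.036 to 0.022 over 15 pairs of groups, 0 of them above 0.1. With the replicate block the counts were 1670 for NOD, 6065 for NOD.H2h4, 4234 for B6.NODIdd1,5 T cells, 5010 for kidney, 3866 for NODtoB6, 7210 for B6toNOD and 4740 for the difference. Each gene has 1 probe, so the alternative of using each probe alone gave no value.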
